A study of Mus musculus with 39 samples.

Results

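Bach2, Bcl6, Bach1 and Prdm1 encode repressors of transcription that act on B-lineage decisions, and their RNA was followed through 4 normal stages of B-cell development and in leukemic cells of the mouse. The 4 genes were found by their symbols in the array's annotation, which gave 6 of the 22690 probe sets in the deposited table. Bach2 and Prdm1 had 1 probe set each, and Bcl6 and Bach1 had 2 each. Where a gene had several probe sets, the brightest over all arrays stood for it, as for each of the 12393 genes tested.

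Cells were sorted from bone marrow, and 1 Affymetrix array was run per sample, 39 in all. The normal cells came from adult mice: 6 arrays held pro-B cells (B220+ CD43+ IgM- IgD-), 8 held pre-B cells (B220+ CD43- IgM- IgD-), 6 held immature B cells (B220+ CD43- IgM+ IgD-) and 3 held mature B cells (B220+ CD43- IgM+ IgD+). The other 16 arrays held leukemic pre-B cells in the same gate as normal pre-B cells, and the series title names the leukemia as MLL-AF4. For 5 of these (A992, A1322, A1507, 270 and A46) the description says that the mouse was leukemic after pIpC, a synthetic double-stranded RNA that induces interferon and is often used to switch on an Mx1-Cre transgene, and for 11 it does not mention pIpC. Leukemic array 116 is described as pre-B cells of an Mll-AF4stop knock-in mouse, with no word on leukemia in the description. The labels used here do not give the Cre driver, the strain or the ages, nor whether each normal array is a different animal, and p-values here rest on the spread from array to array, which may be technical.

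Pre-B cells that have made a heavy chain signal through the pre-B-cell receptor, stop dividing and rearrange the light chain, and cells that fail are lost at this checkpoint. Bach2, a BTB and basic leucine zipper protein that binds DNA with small Maf partners, is required for negative selection there and activates p53 in pre-B cells, while Bcl6, a BTB zinc finger repressor, protects them by repressing Cdkn2a and p53. Bach1 is the paralogue of Bach2, is released from DNA by heme, and represses heme oxygenase. Prdm1 encodes Blimp-1, the repressor that ends the B-cell program in plasma cells, and is itself repressed by Bach2 and by Bcl6.

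Prdm1 is a target of Bach2 and of Bcl6, and Bcl6 is known to repress its own gene. The promoters are therefore shown, with letters that resemble the binding sites marked. Each runs 250 bases up to the base before the start of the RefSeq transcript (GRCm38.p6), on the strand of the gene. Capitals mark TGANTCA in Prdm1, a looser form of the core of AP-1 and Bach sites, since it leaves the central base free. They also mark TTCNNNGAA, a form shared by STAT and Bcl6 sites, in Bcl6 and Bach2.
Prdm1, chr10:44458749-44458998, minus strand: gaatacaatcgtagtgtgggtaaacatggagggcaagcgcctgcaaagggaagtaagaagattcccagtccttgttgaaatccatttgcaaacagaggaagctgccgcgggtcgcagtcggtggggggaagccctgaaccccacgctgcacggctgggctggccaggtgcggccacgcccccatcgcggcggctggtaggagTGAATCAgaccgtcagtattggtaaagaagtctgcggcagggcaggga
Bcl6, chr16:23981284-23981533, minus strand: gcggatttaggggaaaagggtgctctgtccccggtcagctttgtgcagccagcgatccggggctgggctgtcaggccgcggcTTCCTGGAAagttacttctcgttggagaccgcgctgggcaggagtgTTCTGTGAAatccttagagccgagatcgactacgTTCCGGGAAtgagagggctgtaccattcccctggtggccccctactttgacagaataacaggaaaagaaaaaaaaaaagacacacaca
Bach2, chr4:32417185-32417434, plus strand: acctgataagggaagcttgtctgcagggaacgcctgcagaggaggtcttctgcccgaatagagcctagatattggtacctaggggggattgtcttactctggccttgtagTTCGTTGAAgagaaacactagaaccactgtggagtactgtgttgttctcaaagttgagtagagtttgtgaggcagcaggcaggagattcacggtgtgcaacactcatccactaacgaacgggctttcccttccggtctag
The Prdm1 match, TGAATCA, lay at -48 to -42 from the start. Its central base is A, and the letters alone do not make it a Bach site. The Bcl6 promoter held 3 matches to TTCNNNGAA and the Bach2 promoter 1. Bcl6 has another RefSeq start upstream, and its window held 1 match, at -118 to -110. The Bach1 window held neither motif. Both motifs were searched on both strands, and both are common: of 32851 windows of this length, 6.75% held TGANTCA and 7.02% held TTCNNNGAA. These matches are descriptions of the letters, and no binding was measured.

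All levels are log2 intensities of a probe set, and every difference is between group means on that scale. Values of different probe sets are not set against each other, since each has its own affinity. Bach2 (1437667_a_at) had a mean above that of 95.4% of all probe sets other than controls, Bcl6 (1421818_at) above 84.1% and Bach1 (1440831_at) above 89.2%. The Prdm1 probe set (1420425_at) lay lower, above 42.2% of them.

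Leukemic array 122 stood apart from the other 15 in genes other than these 4. Of 14 measured B-lineage markers, 7 were lowest on this array, among them Ebf1 at 7.27 (10.95 to 11.56 on the other leukemic arrays) and Cd79a at 7.0 (10.66 to 12.04). The summed intensity of the plasmacytoid dendritic cell markers was highest there among the leukemic arrays, at 13.41 on the log2 scale, and that of the myeloid markers too, at 14.42. Values without array 122 are given beside the leukemic results that it moves, and leaving it out of the lists, the spread and the relations was chosen after seeing the data. The accessions also fall into 2 runs, the first of 22 arrays and the second of 17, and the second holds all 3 mature B arrays. No label says that they are batches, and results are given within each run where both hold the groups.

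Bach2 RNA had its highest mean in normal pre-B cells, and it was lower in pro-B cells before them and in mature B cells after them. The pro-B arrays read 10.75, 9.72, 10.96, 10.52, 11.43 and 10.47. The 8 pre-B arrays lay between 11.82 and 12.36 with a median of 12.13. The step from pro-B to pre-B was therefore free of overlap, with every pre-B array above every pro-B array. The mean of 12.12 ± 0.19 (SD, n = 8) in pre-B exceeded that of 10.64 ± 0.57 (n = 6) in pro-B by 1.48 (SE 0.17), a 2.78-fold difference (limma, adjusted p = 4.45e-07). In this comparison 33.6% of the 12393 genes were called in either direction, 17.9% were called higher in pre-B, and 3.74% were higher with no overlap. The Bach2 difference was 1.47 within the first run and 1.49 within the second. Markers of other cells moved in the opposite direction. In pre-B, 11 of 12 T and NK cell, 8 of 8 plasmacytoid dendritic cell and 12 of 16 myeloid markers were lower than in pro-B. Of all genes 15.7% were called lower there. Among 14 B-lineage markers, 7 were higher and 2 lower in pre-B, beside 17.9% and 15.7% of all genes. The log2 of the summed T and NK markers ran from 12.37 to 13.73 in pro-B and from 9.90 to 10.66 in pre-B, and that of the dendritic markers from 13.67 to 14.76 and from 11.80 to 12.78. The part of such cells in the Bach2 difference was not tested, and in sorted bulk RNA fewer expressing cells and less RNA per cell cannot be told apart.

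From pre-B to immature B and on to mature B the Bach2 means were lower in turn, and neither single step passed the test. Immature B arrays ran from 11.52 to 12.13 with a median of 11.80. Their mean, 11.82 ± 0.23 (n = 6), was 0.30 (SE 0.17) below that of pre-B, which did not pass (adjusted p = 0.239). The 3 mature B arrays read 11.47, 11.44 and 11.20. All 3 lay below every immature and every pre-B array. Against immature B the difference of -0.45 (SE 0.22) did not pass (adjusted p = 0.319), and 6.15% of genes were lower in mature B with no overlap. Against pre-B it was -0.75 (SE 0.21), or 1.68-fold lower (adjusted p = 0.0105), where 24.5% of genes were called and 9.7% were lower with no overlap. That call was lost within the second run, which holds all mature B arrays (-0.60, adjusted p = 0.0627), without mature array 3 (-0.67, adjusted p = 0.075), and with all 39 arrays in 1 fit (adjusted p = 0.254). Both later stages stayed above pro-B. Immature B was higher by 1.18 (SE 0.18, adjusted p = 2.35e-05, no overlap), where 25.7% of genes were called and 6.65% were higher with no overlap. Mature B was higher by 0.73 (SE 0.22, adjusted p = 0.0166), where 28.1% of genes were called. The mature B call was lost without mature array 1 or 2 (adjusted p = 0.0685 and 0.0626) and with all arrays in 1 fit (adjusted p = 0.24). Most T and NK and plasmacytoid dendritic cell markers were lower at both later stages than in pro-B, and their part in these differences was not tested.

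In leukemic cells Bach2 was lower than in normal pre-B cells and spread much further. The 16 leukemic arrays ran from 8.32 on array 122, through a median of 11.42, to 12.17 on array A1322. Array 122 was the lowest of all 39, and A1322 was the 1 leukemic array within the range of normal pre-B. The other 15 leukemic arrays were below the lowest normal pre-B value. Their group's mean of 11.12 ± 0.88 (n = 16) was 1.0 (SE 0.30) below that of normal pre-B, a 2.0-fold difference (adjusted p = 0.0197). Without array 122 the leukemic mean was 11.30 ± 0.48 (n = 15) and the difference -0.82 (adjusted p = 0.000958). In this comparison 16% of genes were called, and 7.53% were called lower in leukemic cells. The difference was -1.28 within the first run, where it did not pass (adjusted p = 0.103) unless array 122 was left out (-1.04, adjusted p = 0.0141, an alternative chosen after seeing the data), and -0.48 within the second (adjusted p = 0.0165). Of the 14 B-lineage markers 6 were lower and 1 higher in leukemic than in normal pre-B, and 7 of 16 myeloid markers were lower. Of all genes 7.53% were called lower and 8.5% higher. The log2 of the summed B markers ran from 13.78 to 15.53 in leukemic and from 15.37 to 15.68 in normal pre-B, and that of the myeloid markers from 9.67 to 14.42 and from 12.83 to 14.72. Their part in the Bach2 difference was not tested.

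Set against the other stages, the leukemic Bach2 mean lay between those of pro-B and mature B. It was 0.48 (SE 0.36) above pro-B, which did not pass with all 16 arrays (adjusted p = 0.349) and passed without array 122 (0.66, adjusted p = 0.0414), where 15.7% of genes were called with all arrays. It was 0.70 below immature B (SE 0.34, adjusted p = 0.149; without array 122, -0.51, adjusted p = 0.0524). The difference from mature B was -0.25 (SE 0.48, adjusted p = 0.799), with a 95% interval from -1.24 to 0.74. It was -0.0649 without array 122, and its sign turned within the second run, at 0.12. In order of their means the groups ran pre-B, immature B, mature B, leukemic pre-B and pro-B, and no neighbouring pair in that order passed the test.

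**Figure D1:**
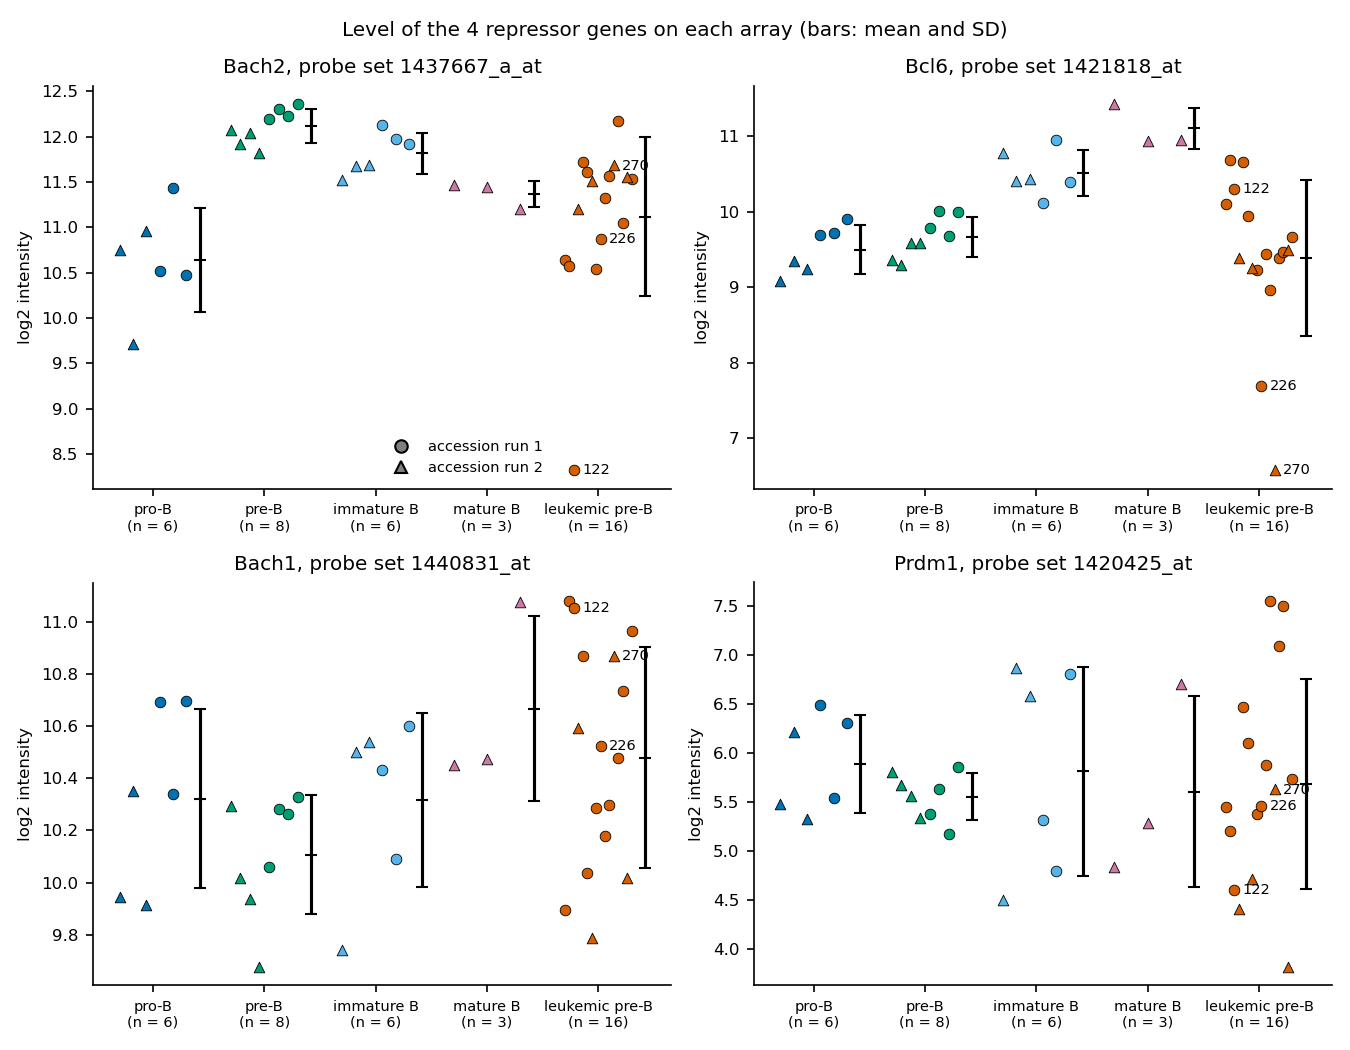
Log2 intensity of Bach2, Bcl6, Bach1 and Prdm1 (y axis, 1 panel per gene) on each array of the 5 groups (x axis), with group means and SD. Bach2 in normal pre-B sits between 11.82 and 12.36 with leukemic array 122 far below at 8.32, while Bcl6 climbs to between 10.94 and 11.43 in mature B and drops to 6.57 on leukemic array 270.

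Bcl6 RNA took another course, with its lowest normal levels in pro-B and pre-B and its highest in mature B. Pro-B arrays ran from 9.08 to 9.91 (median 9.52) and pre-B arrays from 9.29 to 10.02 (median 9.64). These stages overlapped, and their difference of 0.17 (SE 0.15) did not pass (adjusted p = 0.4). Immature B arrays read 10.78, 10.41, 10.44, 10.12, 10.95 and 10.40, all above every pre-B array. Their mean was 0.85 (SE 0.15) above that of pre-B, 9.66 ± 0.27 (n = 8), a 1.80-fold difference (adjusted p = 0.000186). In that comparison 19.6% of genes were called, 10.9% were called higher in immature B, and 5.05% were higher with no overlap. The difference was 0.61 within the first run, just short of the threshold (adjusted p = 0.0501), and 1.09 within the second (adjusted p = 0.000297). It did not pass with all 39 arrays in 1 fit (adjusted p = 0.151), where the leukemic arrays enter the estimate of the spread. The log2 of the summed myeloid markers ran from 12.83 to 14.72 in pre-B and from 14.05 to 15.39 in immature B, and their part in the Bcl6 difference was not tested.

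The 3 mature B arrays read 11.43, 10.94 and 10.96 for Bcl6. Their mean of 11.11 ± 0.28 was 0.59 (SE 0.20) above that of immature B, which did not pass (adjusted p = 0.0908), where 5.25% of genes were called. The same step passed with the accession run as a covariate (0.75, adjusted p = 0.00844). Against pre-B, mature B was higher by 1.44 (SE 0.19), or 2.72-fold (adjusted p = 3.14e-06), and against pro-B by 1.61 (SE 0.20), or 3.05-fold (adjusted p = 1.22e-06). Immature B was also above pro-B, by 1.02 (SE 0.16, adjusted p = 3.72e-05; adjusted p = 0.0747 with all arrays in 1 fit). None of these last 3 pairs of groups overlapped, and the genes higher with no overlap made up 9.98%, 15.9% and 6.65% of all genes in turn. Against pro-B, 11 of 12 T and NK and 8 of 8 plasmacytoid dendritic cell markers were lower in immature B, beside 14.2% of all genes. In mature B 11 of 12 and 6 of 8 were lower, beside 14.6% of all genes. Their part in the Bcl6 differences from pro-B was not tested.

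The second Bcl6 probe set (1450381_a_at), dimmer, ran the same way through the stages, with its mean highest in mature B at 7.25, followed by immature B at 6.76, pre-B at 5.90 and pro-B at 5.67. Its rise from pre-B to immature B was 0.86 (adjusted p = 0.0182 over all 20380 probe sets). Across the 39 arrays the 2 probe sets had a Pearson r of 0.734, with 0.754 in the first run and 0.831 in the second.

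Leukemic Bcl6 was not shown to differ from the early normal stages, and on the brighter probe set it varied more between arrays than in any normal stage. The leukemic arrays ran from 6.57 on array 270, through a median of 9.46, to 10.69 on array 117. Array 270 and array 226, at 7.69, lay below the rest, and the other 14 lay between 8.97 and 10.69. The mean of 9.39 ± 1.04 (n = 16) was 0.27 (SE 0.35) below that of normal pre-B (adjusted p = 0.7), with a 95% interval from -0.998 to 0.45, and without array 270 the difference was -0.084. From pro-B it differed by -0.11 (SE 0.41, adjusted p = 0.876), and this turned to 0.082 without array 270. The dimmer probe set also read low on both arrays, at 5.36 on array 270 and 4.94 on array 226, although its lowest leukemic value was 4.89 on array 227. Its leukemic SD of 0.58 lay between those of immature B, 0.53, and mature B, 0.89.

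Against the later stages leukemic Bcl6 was lower. It was 1.12 (SE 0.41) below immature B, or 2.18-fold lower (adjusted p = 0.0455), with 13 of 16 arrays below every immature B array. There 24.7% of genes were called, and 12.4% were called lower in leukemic cells. This call stood close to the threshold: it was lost in 15 of 22 fits that each left out 1 array, with adjusted p between 0.0525 and 0.104, while the difference stayed between -1.21 and -0.93. It remained past the threshold without array 116, 117, 122, 153, 154, A992 or 270. Within the first run it was -0.86 (adjusted p = 0.287) and within the second -1.86 (adjusted p = 0.0772). Against mature B it was lower by 1.72 (SE 0.57), or 3.29-fold (adjusted p = 0.0374), and all 16 leukemic arrays lay below all 3 mature B arrays. In that comparison 19.1% of genes were called, 9.13% were called lower, and 5.33% were lower with no overlap. The call was lost when mature array 1, 2 or 3 was left out (adjusted p = 0.174, 0.0943 and 0.11), and within the second run the difference was -2.43 (adjusted p = 0.0282). Leaving out array 122 kept both calls, at -1.18 and -1.78. Markers of other cells differed too. In leukemic against immature B cells, 9 of 16 myeloid and 4 of 7 erythroid markers were lower. There 8 of 14 B-lineage markers were lower and 3 higher, beside 12.4% and 12.3% of all genes. Against mature B, 8 of 16 myeloid and 3 of 7 erythroid markers were lower. Of the 14 B-lineage markers 5 were lower there and 4 higher, beside 9.13% and 10% of all genes. The log2 of the summed myeloid markers ran from 9.67 to 14.42 in leukemic, 14.05 to 15.39 in immature B and 14.29 to 15.74 in mature B cells, that of the erythroid markers from 7.92 to 13.11, 9.30 to 11.72 and 9.996 to 12.55, and that of the B-lineage markers from 13.78 to 15.53, 15.66 to 15.89 and 15.48 to 15.71. Their part in the Bcl6 differences was not tested. The dimmer probe set was lower by 0.85 against immature B (adjusted p = 0.0215) and by 1.35 against mature B (adjusted p = 0.0165). By their means the groups ran mature B, immature B, pre-B, pro-B and leukemic pre-B, and of the neighbours immature B and pre-B alone passed the test.

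**Figure D2:**
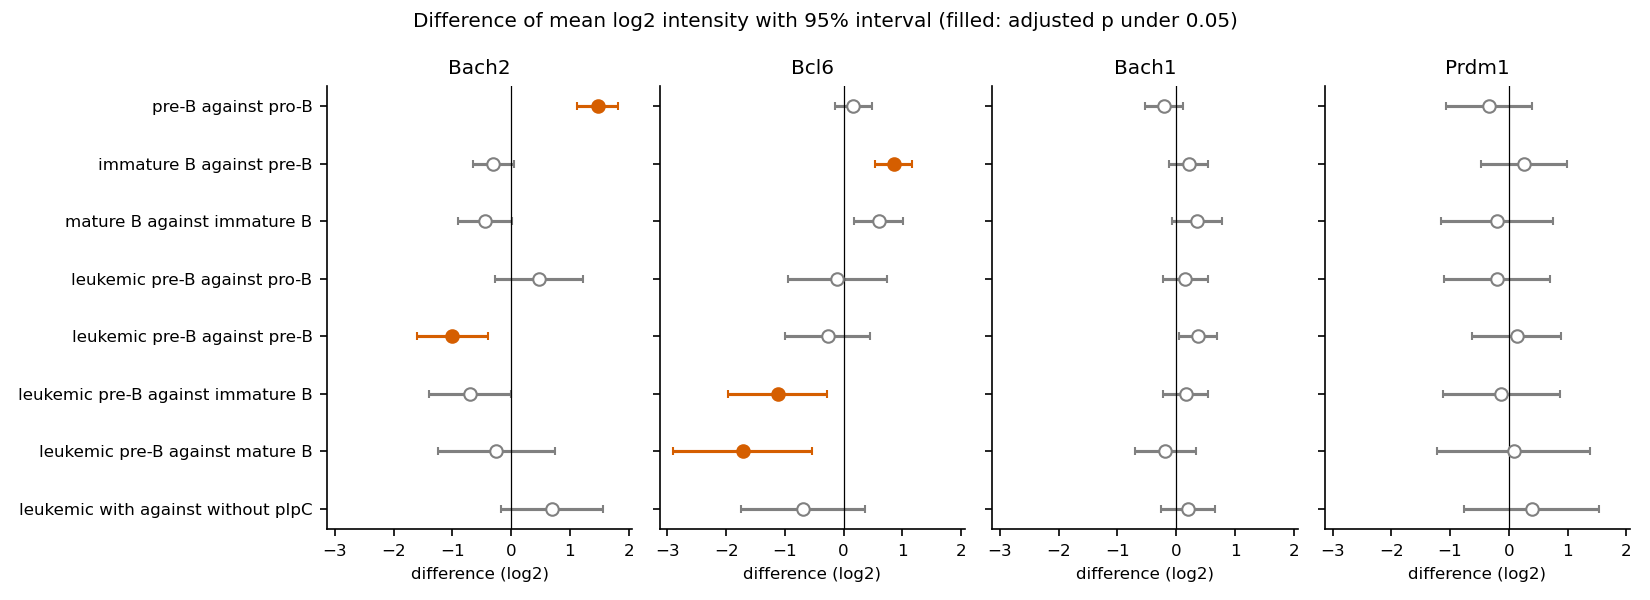
Differences in mean log2 intensity (x axis) with 95% intervals for the 4 genes in 8 of the 11 comparisons (y axis), with called differences (adjusted p under 0.05) filled. The Bach2 interval for leukemic against normal pre-B runs from -1.61 to -0.39, whereas that of Bcl6 runs from -0.998 to 0.45 and spans 0.

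**Figure D3:**
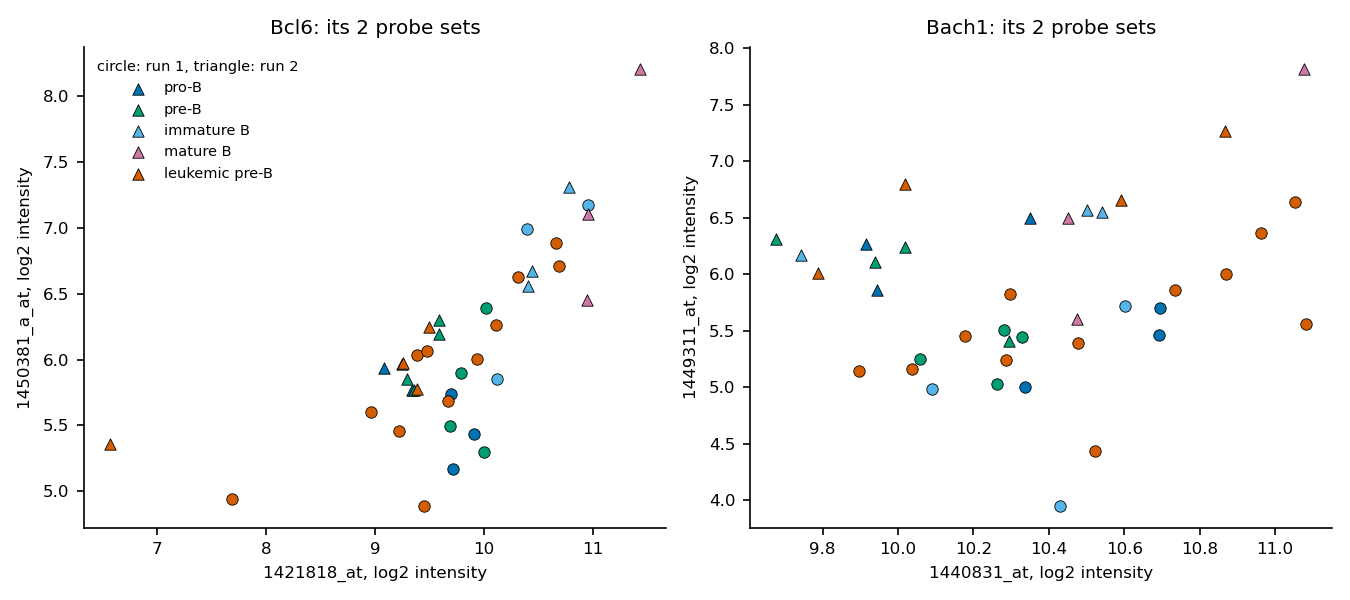
Log2 intensity of the 2 probe sets of Bcl6 and of Bach1 set against each other, 1 point per array. The Bcl6 probe sets rise together (Pearson r 0.734 over 39 arrays), and the Bach1 probe sets do so less (0.235).

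Bach1 RNA differed little between the groups. Pro-B arrays ran from 9.92 to 10.70 (median 10.34), pre-B arrays from 9.68 to 10.33 (median 10.16) and immature B arrays from 9.74 to 10.60 (median 10.47). The mature B arrays read 10.45, 10.47 and 11.08. These 3 lay above every pre-B array, and the difference of 0.56 (SE 0.20) was the 1 call for Bach1 in 11 comparisons (adjusted p = 0.0403), in a comparison where 24.5% of genes were called and 9.98% were higher with no overlap. It was lost without mature array 3 (0.35, adjusted p = 0.341), without pre-B array 2, 3, 4 or 5 (adjusted p = 0.0565, 0.0608, 0.0657 and 0.0573), and with all arrays in 1 fit (adjusted p = 0.118). The second Bach1 probe set (1449311_at) differed by 0.98 in the same direction there and did not pass (adjusted p = 0.155). Over the 39 arrays the 2 Bach1 probe sets had a Pearson r of 0.235, and within the runs 0.558 and 0.61. The second reads higher in the second run in each group that both runs hold, for instance 6.02 against 5.31 in pre-B, and the first reads lower there, at 9.98 against 10.23.

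In leukemic cells Bach1 ran from 9.79 to 11.08 with a median of 10.50. It exceeded every normal pre-B array on 9 of 16 arrays. The mean, 10.48 ± 0.42 (n = 16), was 0.37 (SE 0.16) above that of normal pre-B, and this did not pass over all genes (adjusted p = 0.117; without array 122, 0.33, adjusted p = 0.152). The differences from pro-B (0.16), immature B (0.16) and mature B (-0.19) did not pass either, with adjusted p between 0.569 and 0.7. In the order mature B, leukemic pre-B, pro-B, immature B and pre-B, no neighbours differed by the test.

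Prdm1 did not pass in any of the 11 comparisons, with adjusted p between 0.463 and 0.96. Pro-B arrays ran from 5.33 to 6.49 (median 5.88), pre-B arrays from 5.18 to 5.86 (median 5.60), and immature B arrays from 4.51 to 6.86 (median 5.95). Mature B arrays read 4.84, 5.28 and 6.70. The leukemic arrays ran from 3.82 on array A46, through a median of 5.55, to 7.55 on array 228. Arrays 228, A1507 (7.50) and A1322 (7.09) exceeded every normal array. The mean leukemic difference from normal pre-B was 0.13 (SE 0.37, 95% interval -0.63 to 0.89; without array 122, 0.20), and it turned to -0.95 within the second run, where the leukemic mean was 4.64 ± 0.75 (n = 4) against 6.04 ± 0.94 (n = 12) in the first. By mean the order was pro-B, immature B, leukemic pre-B, mature B and pre-B, with no neighbours that differed by the test.

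Over all 44 tests of the 4 genes in 11 comparisons, 12 passed: 5 for Bach2, 6 for Bcl6, 1 for Bach1 and 0 for Prdm1. That is 27.3% of the tests, beside a mean of 19.3% of all genes called per comparison. The p-values were adjusted over genes within each comparison and not over the 11 comparisons, several of which share arrays.

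By SD, the leukemias differed from each other in Bcl6 (brighter probe set) and Prdm1 more than in most genes, and in Bach2 largely through array 122. The SD over the 16 leukemic arrays exceeded that of 86.9% of genes for Bach2, 91% for Bcl6 and 91.6% for Prdm1, but 49.2% for Bach1. The SD among leukemic arrays was 4.66 times that among normal pre-B arrays for Bach2, 3.89 times for Bcl6, 4.50 times for Prdm1 and 1.86 times for Bach1, and the median over all genes was 1.31 times. Without array 122 the SD of Bach2 was 0.48, above that of 59.2% of genes and 2.54 times that of normal pre-B (1.28 times for the median gene). Bcl6 and Prdm1 then exceeded 92.5% and 93% of genes, with SDs of 1.04 and 1.07. The SD of Bcl6 was not taken without arrays 270 (6.57) and 226 (7.69), which lay below the other leukemic arrays. On the dimmer Bcl6 probe set the leukemic SD was 0.58, between those of immature B, 0.53, and mature B, 0.89. For Prdm1, however, pre-B had the lowest SD of the normal stages, at 0.24. The SD of Prdm1 was 1.06 in normal immature B and 0.97 in normal mature B, close to that of the leukemic arrays. A wide spread of Prdm1 was therefore not particular to leukemic cells. The leukemic SD was 0.94 within the first run (n = 12) and 0.75 within the second (n = 4), around means of 6.04 and 4.64. What other cells in a fraction add to the spread of any group was not tested.

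Bach2 and Bcl6 did not vary together among the leukemias in a way the test could show. Over 16 arrays their Pearson r was -0.274 (permutation test, two-sided, p = 0.242, adjusted p = 0.5 over 6 pairs of genes) and Spearman's rank correlation -0.165 (permutation p = 0.544, adjusted p = 0.773). Without arrays 122 and 224, the farthest from the Bach2 median, r was -0.174, and within the first run -0.199 (n = 12), which turned to 0.0433 there without array 122 (n = 11). The second run holds 4 leukemic arrays, too few for a value. Array 122 combined the lowest Bach2 with Bcl6 at 10.31, and array 270 combined the lowest Bcl6 with Bach2 at 11.68.

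For Bach2 and Prdm1, r was 0.37 (permutation p = 0.142, adjusted p = 0.5) and Spearman's rank correlation 0.512 (permutation p = 0.0447, adjusted p = 0.268). Without arrays 122 and 224 r was 0.262. Within the first run r was 0.696 (n = 12, permutation p = 0.00328, adjusted p = 0.0197 over 6 pairs), and 0.625 there without array 122 (n = 11). Leukemic Bach2 averaged 10.99 in the first run and 11.49 in the second, against 6.04 and 4.64 for Prdm1. The pooled relation of Bach2 and Prdm1 therefore did not pass, and that within 1 run did. The other 4 pairs had pooled r between -0.313 and 0.125, with adjusted p of 0.5 or more, and for Bcl6 with Bach1 r moved from 0.0406 to 0.508 when arrays 270 and 226 were left out.

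**Figure D4:**
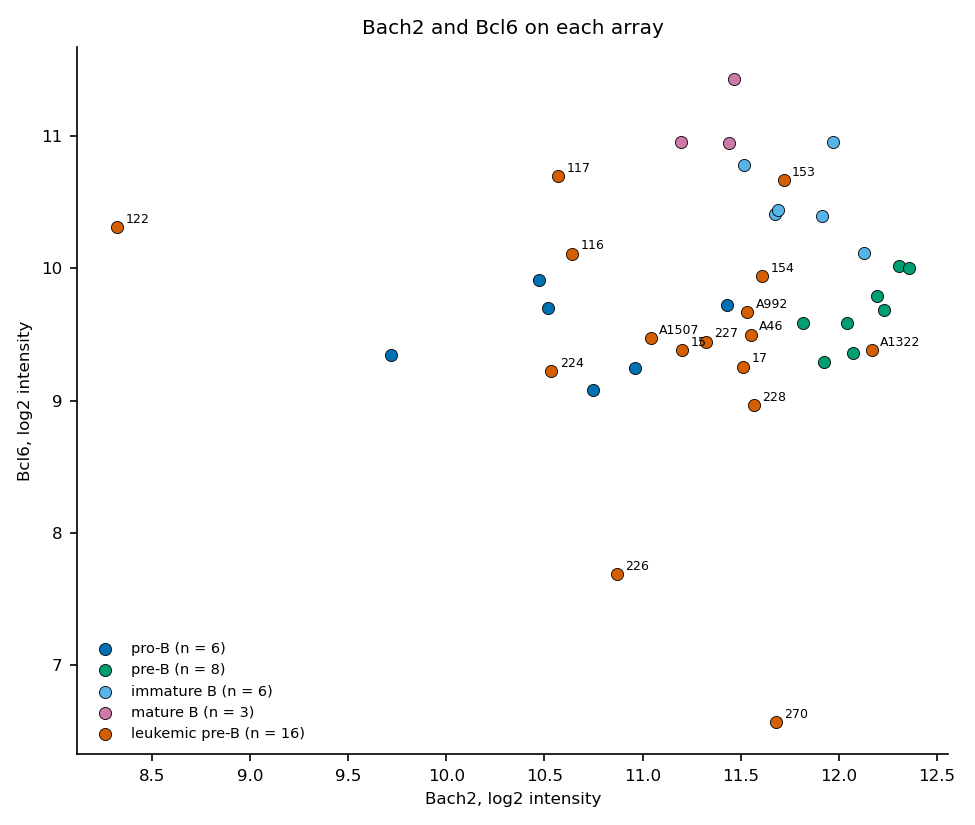
Bach2 (x axis) against Bcl6 (y axis), log2 intensity, 1 point per array in the colour of its group. Normal pre-B lies at high Bach2 and mature B at high Bcl6, with immature B between them and reaching close to both. The leukemic arrays scatter with 122 far to the left and 270 and 226 at the bottom.

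Leukemias described as arising after pIpC were not shown to differ from the other leukemias in any of the 4 genes. In that comparison 0% of genes passed with limma, 4.87% (603 genes) had an unadjusted p under 0.05, and 1 gene was called within the first run. Bach2 averaged 11.60 ± 0.40 on the 5 arrays with pIpC and 10.90 ± 0.96 on the 11 without (difference 0.70, 95% interval -0.16 to 1.56, adjusted p = 0.933), and without array 122 the difference was 0.44. Bcl6 averaged 8.92 ± 1.32 and 9.61 ± 0.87 (difference -0.69, 95% interval -1.74 to 0.36, adjusted p = 0.933), and without array 270 the difference was -0.10. Bach1 differed by 0.19 and Prdm1 by 0.39, and the intervals of both span 0. With 1 array left out at a time, the Bach1 difference lay between 0.106 (without array A992) and 0.343 (without A46), and that of Prdm1 between 0.00548 (without A1507) and 0.92 (without A46).

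The genes whose course over all 39 arrays was most like that of each repressor were named by Pearson r among genes above the median level, as a description of arrays that share groups and runs. For Bach2 they were Trib2, a Tribbles pseudokinase (r = 0.903), Plekha2, a phosphoinositide-binding adaptor (0.861), Pou2af1, the B-cell coactivator OCA-B (0.837), and Eps8, an actin regulator (0.832). Trib2 had an r of 0.936 over the 23 normal arrays and of 0.893 over the 16 leukemic arrays, but of 0.579 over 15 leukemic arrays without array 122. That of Plekha2 was then 0.596, of Eps8 0.243 and of Pou2af1 0.00464, against 0.801 to 0.838 for these 3 with array 122. For Bcl6 they were Fcgr2b, the inhibitory Fc receptor (0.845), Tank, an adaptor of TRAF signalling (0.832), Cd83, a surface protein of activated B and dendritic cells (0.825), and Nfat5, a factor of the osmotic stress response (0.821). Likeness was lower for Bach1, led by Lipa, the lysosomal acid lipase (0.669), Pros1, which encodes protein S (0.639), Abcc5, a transporter (0.638), and Arhgap9, a GTPase-activating protein (0.636). For Prdm1 it was lower again, led by Slc7a7, an amino acid transporter (0.555), Jchain, the joining chain of secreted immunoglobulin (0.533), Ttc39b (0.525) and Cyth3, an exchange factor for ARF GTPases (0.52). Over normal arrays alone Ttc39b had an r of 0.107.

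Small Maf proteins pair with Bach proteins on DNA, and corepressors carry out the repression. Of 7 measured partners and corepressors, 2 were higher in leukemic than in normal pre-B, 0 were lower and 5 did not pass, beside 8.5% of all genes higher and 7.53% lower. Mafg, a small Maf partner of Bach proteins, was higher by 1.08 (SE 0.21, adjusted p = 0.00062), on 14 of 16 arrays above every normal one. Patz1, a BTB zinc finger protein related to Bcl6, was higher by 0.59 (SE 0.11, adjusted p = 0.000294). Mafk, another small Maf, differed by -0.081 (adjusted p = 0.814). The median of the 7 was -0.041, and that of all genes -0.0069. From pro-B to pre-B 2 partners were higher and 1 lower, beside 17.9% and 15.7% of all genes. Zbtb17, the Bcl6 partner Miz1, was higher by 0.59, Maff, another small Maf, by 0.46, and Mafg was lower by 0.97. Maff was dim, with means of 5.05 in pre-B and 4.59 in pro-B, below the array medians of 6.36 to 6.76. From pre-B to immature B 1 was higher, Mafg by 0.84 (adjusted p = 0.00234), and 0 were lower, beside 10.9% and 8.7% of all genes.

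Genes of the heme and oxidative response, whose antioxidant response elements Bach1 can occupy, moved in both directions. Between leukemic and normal pre-B, 1 of 8 was higher, 2 were lower and 5 did not pass, beside 8.5% and 7.53% of all genes. Txnrd1, a thioredoxin reductase, was higher by 0.65 (adjusted p = 0.000163), Gclc, which makes glutathione, was lower by 1.02 (adjusted p = 0.0172), and Fth1, ferritin heavy chain, was lower by 0.43 (adjusted p = 0.00105). Hmox1, heme oxygenase, differed by 0.67 (SE 0.40) and did not pass (adjusted p = 0.305). From pro-B to pre-B 1 of the 8 was higher and 0 lower, beside 17.9% and 15.7% of all genes, with Gclc higher by 1.41 (adjusted p = 0.00029), and Hmox1 differed by -0.70 (adjusted p = 0.273).

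Of 11 measured genes that Bcl6 is known to repress, 3 were higher in leukemic than in normal pre-B, 1 was lower and 7 did not pass, beside 8.5% and 7.53% of all genes. The list's median difference was 0.24 and that of all genes -0.0069. The third higher gene, Atr, a kinase of the replication checkpoint, did not pass without array 122 (0.60, adjusted p = 0.0514). Cdkn2a, which encodes the Arf and Ink4a tumour suppressors, was higher by 2.01 (SE 0.59, adjusted p = 0.0193), with 13 of 16 arrays above all of normal pre-B. Its normal pre-B mean was 4.15, below the array medians of 6.36 to 6.76. Bcl2, the survival factor, was higher by 1.31 (SE 0.43, adjusted p = 0.0348), with 14 arrays above and 2 below every normal one. Cdkn1b, the p27 cell cycle inhibitor, was lower by 0.92 (adjusted p = 0.000276), and Cdkn1a, the p21 inhibitor and a p53 target, differed by 0.24 (adjusted p = 0.685). Trp53 itself was not analysed here.

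In normal development the same list split. From pro-B to pre-B 2 of 11 were higher and 4 lower, beside 17.9% and 15.7% of all genes, with Cdkn1b higher by 0.70 and Cdkn2a by 0.39, and with the chemokine Ccl3 lower by 3.05 and Bcl2 by 2.36. Cdkn2a was dim, with means of 4.15 in pre-B and 3.76 in pro-B, below the array medians of 6.36 to 6.76. Most T and NK, plasmacytoid dendritic and myeloid markers were also lower in pre-B, and their part in these differences was not tested. From pre-B to immature B, where Bcl6 was higher, 2 were higher and 2 lower, beside 10.9% and 8.7% of all genes: Ccnd2, cyclin D2, by 2.48 and Bcl2 by 1.56 upward, and Chek1, the replication checkpoint kinase, by -1.93 and Cdkn1a by -1.44. From immature to mature B 1 was higher (Bcl2, 1.46) and 2 lower (Ccnd2, -1.36, and Cdkn1a, -1.12), beside 1.96% and 3.29% of all genes.

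Blimp-1 is known to repress Myc and the factors that hold B-cell identity. From pre-B to immature B 5 of 5 measured genes of this kind were higher, beside 10.9% of all genes, with Pax5, the B-lineage identity factor, by 1.15, and Myc by 1.08. Prdm1 itself differed there by 0.26 (adjusted p = 0.652). Between leukemic and normal pre-B 1 of the 5 was higher and 2 lower, beside 8.5% and 7.53% of all genes. Myc, the growth factor-responsive proto-oncogene, was higher by 2.73 (SE 0.29, adjusted p = 2.31e-07), on 15 of 16 arrays above every normal pre-B array. Spib, an Ets factor of B cells, was lower by 1.36 (adjusted p = 2.66e-05), with no overlap, as 0.799% of all genes were, and Ciita, the activator of MHC class II, by 1.31 (adjusted p = 0.021). From pro-B to pre-B 2 were higher and 1 lower, beside 17.9% and 15.7% of all genes: Myc was lower by 2.49 (adjusted p = 2.94e-06), while Spib and Pax5 were higher by 0.47 and 0.70. Pax5 averaged 5.62 in pre-B and 4.92 in pro-B, below the array medians of 6.36 to 6.76.

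Of 8 measured genes of the plasma cell program, 3 were lower in leukemic than in normal pre-B and 0 higher, beside 7.53% and 8.5% of all genes. Sdc1, the plasma cell surface proteoglycan CD138, was lower by 1.92 (adjusted p = 0.0385), and Creb3l2 by 1.52 (adjusted p = 0.00012). Irf4, which acts both in light chain rearrangement and in plasma cells, was lower by 1.10 on 16 of 16 arrays (adjusted p = 0.00755). Genes lower with no overlap made up 0.799% of all genes. Xbp1, the factor of the secretory response, differed by -0.12 (adjusted p = 0.854). From pro-B to pre-B 2 were higher and 4 lower, beside 17.9% and 15.7% of all genes, with Slamf7, a surface receptor of plasma and NK cells, higher by 1.05, Irf4 higher by 0.91 and Jchain and Xbp1 lower by 3.51 and 1.62. Markers of T and NK, plasmacytoid dendritic and myeloid cells were mostly lower at this step as well, and their part was not tested. From pre-B to immature B 4 were higher and 3 lower, beside 10.9% and 8.7% of all genes. Xbp1 was higher by 1.40 and Tnfrsf17, the plasma cell survival receptor BCMA, by 1.24, while Slamf7 was lower by 1.23, Sdc1 by 1.09 and Irf4 by 0.43.

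Among 9 measured genes that feed the checkpoint, 2 were lower in leukemic than in normal pre-B, 0 were higher and 7 did not pass, beside 7.53% and 8.5% of all genes. Blnk, the adaptor of pre-B-cell receptor signalling, was lower by 1.80 (SE 0.47, adjusted p = 0.00799), on 15 of 16 arrays below every normal one. Syk, its kinase, was lower by 1.71 (SE 0.16, adjusted p = 5.9e-08), on 16 of 16, and 0.799% of all genes were lower with no overlap. Foxo1, which activates the recombinase genes, differed by -0.72 and did not pass (adjusted p = 0.137), but passed without array 122 (-0.50, adjusted p = 0.0075). From pro-B to pre-B, the step at which Bach2 was higher, 3 were higher and 3 lower, beside 17.9% and 15.7% of all genes. Syk was higher by 1.33 and Foxo1 by 1.03, and Irf8 was lower by 2.0 and Stat5a, which acts after the interleukin 7 receptor, by 0.65. At that step 11 of 12 T and NK cell, 8 of 8 plasmacytoid dendritic cell and 12 of 16 myeloid markers were lower too. The part of such cells in the differences of the 6 lists was not tested. From pre-B to immature B 3 were higher, led by Irf8 (0.91) and Stat5a (0.43), and 1 was lower, Il7r, that receptor, by 1.18, beside 10.9% and 8.7% of all genes. From immature to mature B 2 were lower, Il7r by 2.45 and Ikzf1, the Ikaros factor, by 0.89, and 0 higher, beside 3.29% and 1.96%. Ikzf1 averaged 6.36 in immature B and 5.48 in mature B, where array medians lay between 6.36 and 6.76. Of the 17 genes of the 6 lists called in leukemic against normal pre-B, 16 kept their call without array 122, and their differences moved by 0.205 or less. The lists were tested gene by gene over all 12393 genes, and no list is singled out by its count.

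**Figure D5:**
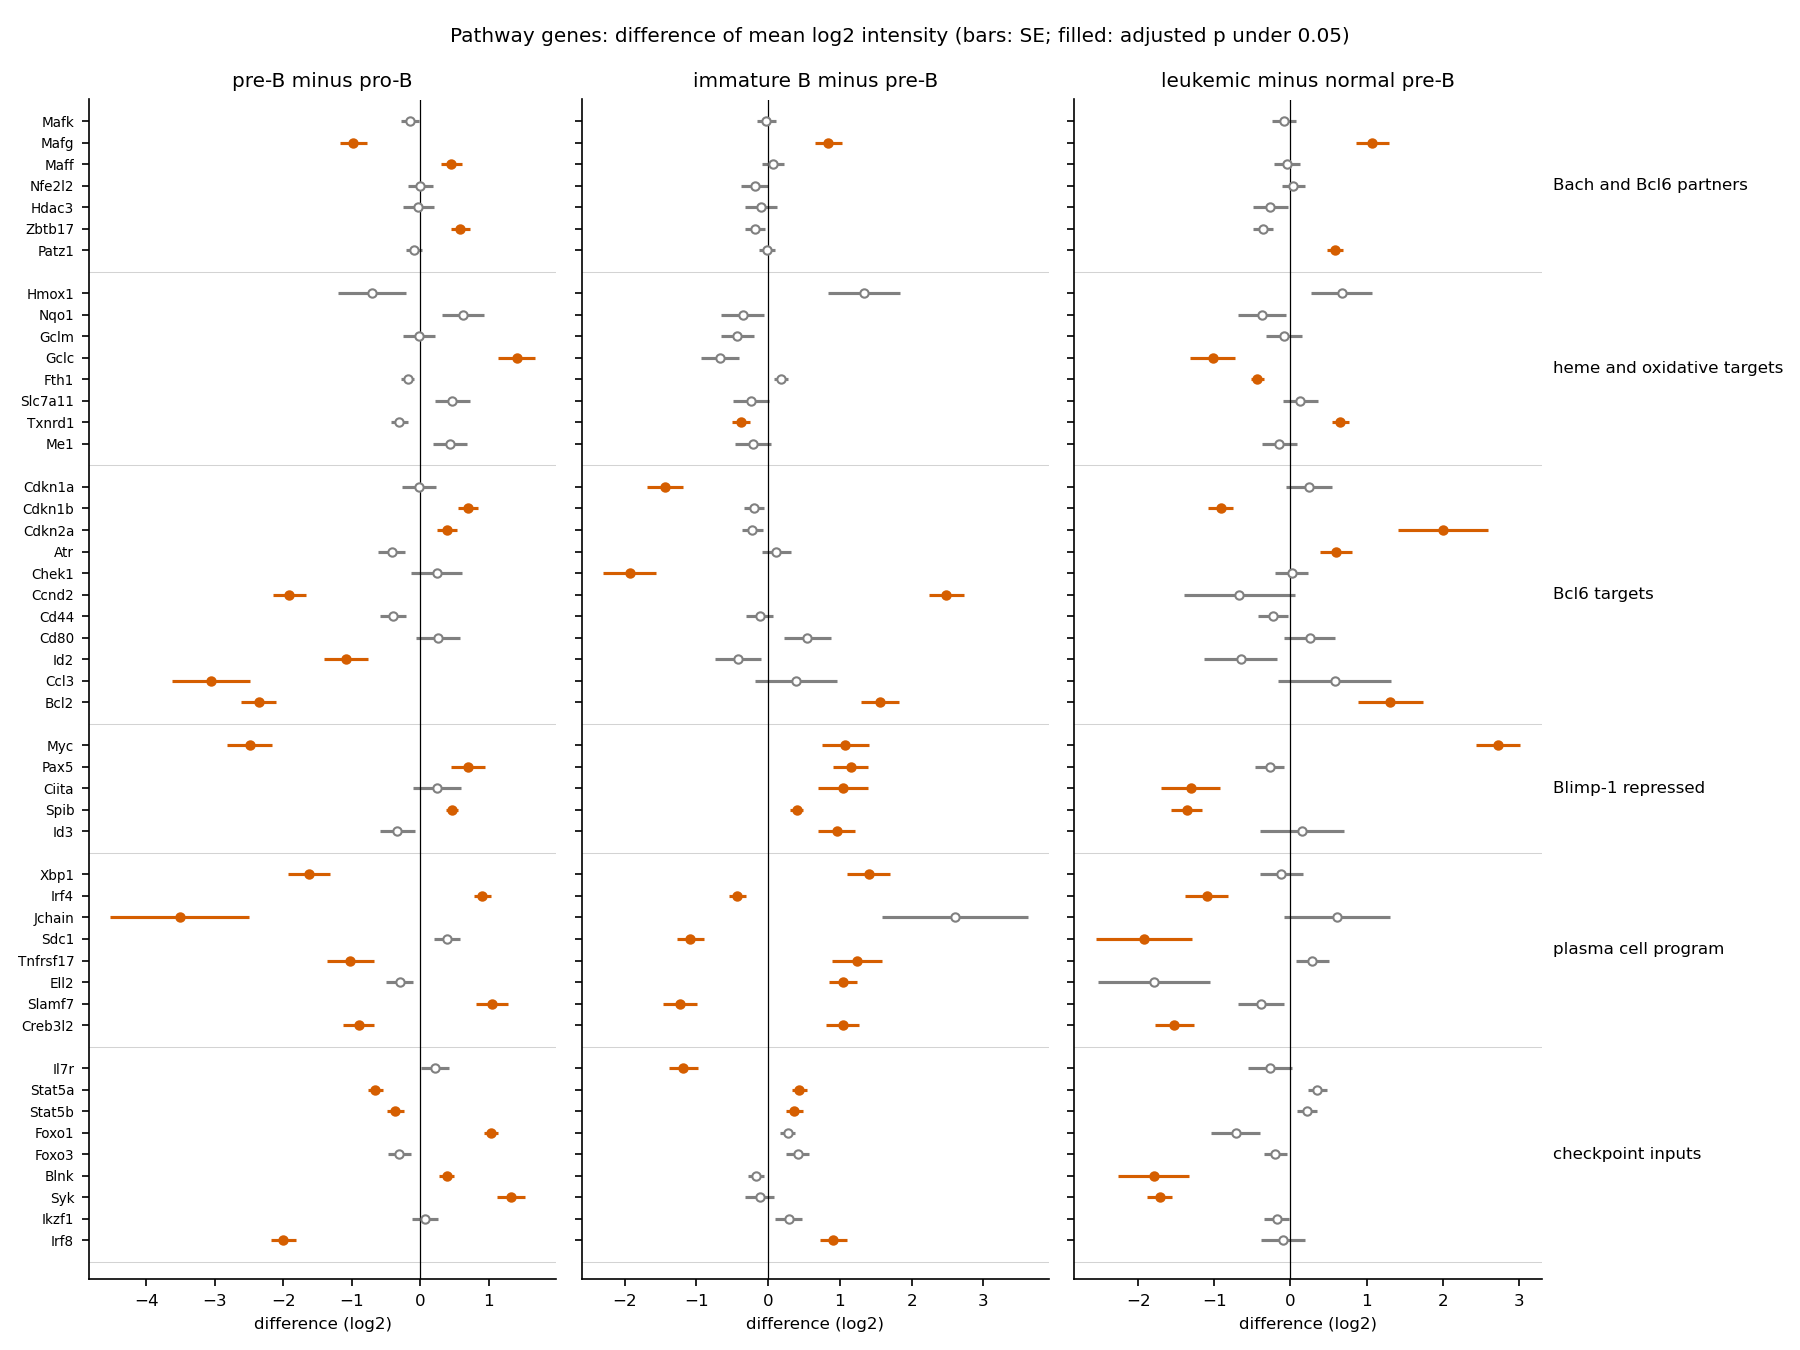
Differences in log2 intensity (x axis) for each measured gene of 6 lists (y axis) in the comparisons named above the panels, with called genes marked. In leukemic against normal pre-B, Myc lies farthest to the right at 2.73 and Sdc1 to the left at -1.92, with Blnk at -1.80 and Syk at -1.71.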

How the data were processed

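The deposited table held 1 intensity per probe set for each of 39 arrays, which the authors computed by RMA (named, without a version, in the submitters' processing notes). Whether all arrays were normalized together is not stated. Per the labels' protocols, 20 ng of Trizol RNA was amplified (NuGEN Ovation) and biotinylated. The deposited intensity values were linear and were taken to log2 with no offset; array medians lay between 82.0 and 108.7. Depth does not apply, and the number of arrays limits the precision.

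Of 22690 probe sets, 64 controls, 691 with several symbols and 1555 with none were left out, and the other 20380 gave 12393 genes. Symbols came from the array's annotation. Groups were compared with limma 3.58.1 in R 4.3.3 (lmFit, then eBayes with an intensity trend) over all genes: leukemic cells against each stage in a fit of those arrays, the normal stages in 1 fit of 23 arrays, and pIpC among the 16 leukemic arrays. The threshold for a call was 0.05 after Benjamini-Hochberg adjustment over all genes of a comparison. Relations over leukemic arrays used permutation tests with 100000 resamples (scipy 1.17.1). The scripts were tested on simulated data.

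The members and lists were chosen with earlier results of these data known. Genes named outside the 4 are, per list and comparison described, up to 2 of the largest called differences in each direction, a preset set (Cdkn2a, Cdkn1a, Myc, Mafk, Hmox1, Xbp1, Irf4 and Trp53), and the 4 genes most like each member. Atr and Foxo1 were named after their values without array 122 were seen, and other called genes are given as counts. Alternatives were quantile normalization, the dimmest 40% of genes left out, the mean of all probe sets, all arrays in 1 fit, the accession run as covariate or within runs, the replicate number as a block and each array left out. Promoters came from RefSeq (GRCm38.p6).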

Additional observations from a re-analysis of the deposited data

Results flagged for a closer look

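Bcl6 (1421818_at) on leukemic array 270 read 6.57, far below the other 4 arrays of leukemic cells with pIpC in the description, of which the nearest read 9.38. The gap made up 0.908 of the whole range of the 5 arrays. In all, 24 groups of 4 to 10 arrays were examined in this way for the 6 probe sets, and chance marks about 1 in 20 of them. The dimmer Bcl6 probe set (1450381_a_at) read 5.36 on the same array, against 5.69 to 6.24 on the other 4. Bach2 on array 270 was 11.68, within the range of those arrays. The group of all 16 leukemic arrays was too large for this rule, so Bach2 on array 122 at 8.32 was not examined by it.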

How the results depend on the processing

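Of the settings other than leaving out single arrays, 310 values kept their direction and side of the threshold, 12 lost a call, 4 gained 1 and 20 turned sign. The causes were not tested. Calls lost with all arrays in 1 fit were Bcl6 in immature B against pre-B (0.85) and pro-B (1.02), Bach2 in mature B against pro-B (0.73) and pre-B (-0.75), and Bach1 in mature B against pre-B (0.56). Calls lost within the first run were Bach2 in leukemic against normal pre-B (-1.28), and Bcl6 in leukemic against immature B (-0.86; -0.92 with array 122 also left out, an alternative chosen after seeing the data) and in immature B against pre-B (0.61). Within the second run Bcl6 in leukemic against immature B (-1.86) and Bach2 in mature B against pre-B (-0.60) were lost. The run as a covariate brought Bcl6 in mature against immature B (0.75) and Bach1 in mature B against pro-B (0.49) past the threshold, and within the first run the relation of Bach2 and Prdm1 passed (r = 0.696).

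Signs turned with the run as a covariate for Prdm1 in leukemic against normal pre-B (-0.068) and mature B (-0.96) and for Bach2 in leukemic against mature B (0.12). Within the second run they turned for the same 3 (-0.95, -0.96 and 0.12) and for immature B against pro-B in Bach1 (0.19) and Prdm1 (0.31). Within the first run they turned for Bach1 in leukemic against pro-B (-0.042; -0.0895 without array 122), for Prdm1 against immature B (0.39; 0.52 without array 122) and, without array 122, for Prdm1 against pro-B (0.054). The mean of probe sets turned Bcl6 in leukemic against pro-B (0.066), and quantile normalization turned immature B against pro-B in Bach1 (0.035) and Prdm1 (0.0021). Within the first run without array 122 the r of Bach2 turned to 0.0433 with Bcl6 and to 0.0465 with Bach1. The r of Bach1 and Prdm1 was -0.177 within the first run and -0.0137 without arrays 17 and 116.

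With single arrays left out, results with a changed call or sign ranged as follows, each against the group named. Leukemic Bach2 against pro-B ranged from 0.29 to 0.66. Leukemic Bcl6 ranged from -0.19 to 0.082 against pro-B, from -1.21 to -0.93 against immature B and from -1.80 to -1.53 against mature B. Leukemic Bach1 against mature B ranged from -0.30 to 0.017. Leukemic Prdm1 ranged from -0.39 to 0.085 against immature B and from -0.30 to 0.63 against mature B. Mature B Bach2 ranged from 0.54 to 0.88 against pro-B and from -0.80 to -0.67 against pre-B, and Bach1 from 0.35 to 0.67 against pre-B. Mature B Prdm1 ranged from -0.75 to 0.18 against immature B, from -0.83 to 0.099 against pro-B and from -0.49 to 0.44 against pre-B. Immature B against pro-B ranged from -0.086 to 0.11 for Bach1 and from -0.29 to 0.18 for Prdm1.

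The labels do not say whether the replicate numbers pair the samples. Same-numbered arrays of different normal stages had a median correlation of their deviations of 0.249, and arrays of other numbers in the same run 0.273. With deviations taken within each run these medians were 0.0211 and -0.0286. Such values cannot show whether same-numbered arrays share an animal. With the replicate block Bcl6 in mature against immature B passed (0.74) and Bach2 in mature B against pre-B did not (-0.56). Leukemic arrays share no numbers with the stages, so they had no such fit.

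Counts of called genes moved by over 1.5 times in some settings. They ranged over settings from 1001 to 2756 (1987 as reported) for leukemic against normal pre-B, from 344 to 2808 (1950) against pro-B, and from 1584 to 3957 (3061) against immature B. Among normal stages they ranged from 2055 to 5755 (4162) for pre-B against pro-B, from 1314 to 3501 (2426) for immature B against pre-B, from 203 to 1026 (651) for mature against immature B, from 2276 to 5482 (3485) for mature B against pro-B, from 2013 to 4359 (3188) for immature B against pro-B, and from 1966 to 3723 (3039) for mature B against pre-B. With the dimmest genes left out, 234 of 813 calls were higher in leukemic cells than in pro-B, against 1005 of 1950.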
